A study of Mus musculus with 6 samples.

Results

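The levels of 7 genes of transmitter and nutrient uptake were followed across the cell classes of the mouse hypothalamus, in wild-type animals and in animals lacking IDOL. The genes were chosen by symbol, and all 7 were present among the 18204 genes of the count table: Slc1a2, Slc1a3, Glul, Slc6a11, Slc7a10, Slc38a3 and Slc15a2. They were chosen with earlier results of the same data known, Slc15a2 for its difference between the genotypes, so levels across classes and the Slc15a2 difference are given as descriptions without a test.

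The mice were C57BL/6J and 8 weeks old. The hypothalamus, the ventral brain region that governs feeding, temperature and hormone release, was dissociated and profiled by Drop-seq, which captures the 3' end of transcripts from single cells on barcoded beads and counts each captured molecule once by its unique molecular identifier (UMI). There were 3 wild-type (WT) and 3 IDOL knockout (KO) libraries. IDOL, encoded by Mylip, is a ubiquitin ligase that marks lipoprotein receptors for degradation. The labels gave neither the deleted part of Mylip nor the number of animals behind each library, so the spread between libraries may be technical. Libraries were made on 2 days with genotypes mixed, without a record of which library belonged to which day.

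Of 13994 barcodes, 9333 were kept as cells, 1036 to 1871 per library, with medians of 804 to 1017 UMIs per cell. Mylip had 68, 27 and 43 UMIs in WT1, WT2 and WT3, against 2, 0 and 0 in KO1, KO2 and KO3. Across libraries, 3 barcode sequences occurred more than once. Classes were named from marker genes that did not include any of the 7 genes: 1644 astrocytes, 424 tanycytes, 590 oligodendrocyte precursor cells (OPC) and 2408 neurons, with 269 ependymal cells, 1267 oligodendrocytes, 986 endothelial cells and 391 microglia for comparison. All 17 astrocyte markers were detected in the astrocytes, where they summed to 27272 to 30177 CPM (UMIs of a gene scaled to a fixed total per class and library), against 5261 to 8501 in tanycytes, 1324 to 2242 in OPC and 366 to 650 in neurons. The 13 neuronal markers summed to 387 to 921 CPM in the astrocytes. RNA released from broken cells can give UMIs in any droplet, and its part in the low levels was not tested.

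Synaptic glutamate and GABA are cleared mainly by transporters rather than by breakdown in the cleft, and astrocytes carry most of the glutamate transport of the adult brain. Inside the astrocyte, glutamate is joined with ammonia to form glutamine, which leaves the cell and is taken up again by neurons as a precursor of both transmitters. Tanycytes, which line the floor of the third ventricle, and OPC are glia of other kinds that also carry some of these transporters.

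On GRCm38, Slc1a2, which encodes the glutamate transporter GLT-1, lies at chr2:102658659-102790784 on the plus strand. Slc1a3, which encodes the glutamate transporter GLAST, lies at chr15:8634124-8710764 on the minus strand. Glul, the gene of glutamine synthetase, lies at chr1:153899944-153909723 on the plus strand. Slc6a11, which encodes the GABA transporter GAT-3, lies at chr6:114131241-114249952 on the plus strand. Slc7a10, which encodes Asc-1, an exchanger of small neutral amino acids including D-serine and glycine, lies at chr7:35186385-35201114 on the plus strand. Slc38a3, which encodes the sodium-coupled glutamine transporter SNAT3, lies at chr9:107650634-107669530 on the minus strand. Slc15a2, which encodes PEPT2, a proton-coupled carrier of dipeptides and tripeptides, lies at chr16:36750177-36784962 on the minus strand.

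Slc7a10 overlaps Lrp3 and Slc1a2 overlaps Gm13872 on the opposite strand. The strand counted was not given, so their reads may not be fully separable. Lrp3 had a different profile from Slc7a10, with 14.7 ± 7.15 CPM in astrocytes and 40.5 ± 9.44 in neurons (SD, n = 6 libraries), and Gm13872 had 2 UMIs in all astrocytes.

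The RefSeq promoter table (GRCm38.p6) held 6 of the 7 genes, all but Slc38a3. The 4 windows that overlapped no annotated exon are shown because genes with their highest level in the same cell class had start regions of 2 kinds. Each gives the 250 bases before the start site, 5′ to 3′ on the gene's strand, with CG dinucleotides in capitals.
Slc1a3, chr15:8710808-8711057: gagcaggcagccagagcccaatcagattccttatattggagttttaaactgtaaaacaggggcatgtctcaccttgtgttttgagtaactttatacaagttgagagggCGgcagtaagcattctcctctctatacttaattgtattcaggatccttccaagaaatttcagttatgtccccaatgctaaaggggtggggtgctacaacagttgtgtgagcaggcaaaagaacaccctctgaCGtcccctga
Slc15a2, chr16:36784963-36785212: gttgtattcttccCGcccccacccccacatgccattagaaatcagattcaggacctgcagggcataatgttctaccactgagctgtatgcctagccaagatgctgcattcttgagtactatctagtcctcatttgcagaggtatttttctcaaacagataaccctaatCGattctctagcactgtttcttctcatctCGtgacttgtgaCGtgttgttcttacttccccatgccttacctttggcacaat
Slc6a11, chr6:114130991-114131240: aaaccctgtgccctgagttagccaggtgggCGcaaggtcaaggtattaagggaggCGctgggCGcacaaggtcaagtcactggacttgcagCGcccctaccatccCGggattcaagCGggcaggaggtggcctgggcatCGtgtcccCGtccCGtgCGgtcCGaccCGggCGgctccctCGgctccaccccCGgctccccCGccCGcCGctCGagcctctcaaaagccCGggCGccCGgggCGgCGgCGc
Slc7a10, chr7:35186135-35186384: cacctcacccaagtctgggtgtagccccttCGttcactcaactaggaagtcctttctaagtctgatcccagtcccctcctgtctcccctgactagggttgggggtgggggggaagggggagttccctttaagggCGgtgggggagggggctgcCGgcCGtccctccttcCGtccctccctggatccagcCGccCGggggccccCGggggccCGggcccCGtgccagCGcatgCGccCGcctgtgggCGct
The Slc1a3 and Slc15a2 windows held 2 and 4 CG dinucleotides at a GC content of 44.8% and 45.2%. Slc6a11 and Slc7a10 held 25 and 14, at 71.2% and 69.6%. The median of all 32851 promoters was 6 CG dinucleotides and a GC content of 52.4%. The TTGGC motif of nuclear factor I (both strands), a factor family with a known role in astrocyte genes, was held by 41.5% of all promoters. It was found 2 times before Slc15a2 and not before Slc1a3, Slc6a11 or Slc7a10. The windows of Slc1a2 and Glul, which are not shown, held it 1 and 2 times. A SOX site (ACAATG, both strands) was in none of the 6 windows and in 10.7% of all promoters.

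The glutamate transporters Slc1a2 and Slc1a3 were both highest in astrocytes, and they parted in the other glia: OPC held Slc1a2 with little Slc1a3, and tanycytes held more Slc1a3 than Slc1a2. Levels are CPM of all UMIs of a class in a library, and one UMI stands for one captured transcript end, so they do not scale with gene length. Slc1a2 in astrocytes was 4747, 5663 and 4344 CPM in WT1, WT2 and WT3 and 5463, 6244 and 3743 CPM in KO1, KO2 and KO3, the order kept below. These 6 values did not overlap those of any other class. OPC followed with 963 ± 155 CPM and tanycytes with 778 ± 147 (SD, n = 6 libraries), whose ranges overlapped. Neurons had 74.4 ± 13.8 CPM, 67.6-fold below astrocytes, and the neuronal value did not differ beyond its spread from oligodendrocytes (94.3 ± 32.2) or endothelial cells (75.0 ± 25.3).

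Slc1a3 in astrocytes was 5293, 5102 and 4299 CPM in WT and 4670, 5144 and 4593 in KO, again above every other class in each library. Tanycytes followed with 1259 ± 236 CPM, 3.85-fold below, and ependymal cells, the ciliated lining of the ventricle, with 561 ± 263, a range that overlapped that of tanycytes. OPC had 219 ± 61.9 CPM, level with microglia at 221 ± 61.7. Neurons had the lowest level, 29.5 ± 11.6 CPM, 165-fold below astrocytes.

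Glul did not follow the astrocyte pattern. Its level in astrocytes was 3105, 3824 and 3453 CPM in WT and 2477, 2895 and 2688 in KO. Oligodendrocytes, the myelin-forming cells, reached 2563 ± 495 CPM and overlapped the astrocyte range, although astrocytes were higher in 6 of 6 libraries. Microglia had 1768 ± 298 and endothelial cells 1457 ± 214 CPM. These non-astrocytic classes stood above tanycytes (666 ± 255), OPC (209 ± 36.8) and neurons (105 ± 18.8).

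The GABA transporter Slc6a11 and the amino acid exchanger Slc7a10 were the genes most concentrated in astrocytes. Slc6a11 was 1328, 1781 and 1822 CPM in WT astrocytes and 1950, 1314 and 2159 in KO astrocytes. The next class, tanycytes, had 122 ± 41.9 CPM, 14.2-fold less, and OPC and neurons had 42.8 ± 11.9 and 18.5 ± 8.65. The astrocyte libraries did not overlap those of any other class.

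Slc7a10 was 682, 968 and 931 CPM in WT astrocytes and 793, 634 and 773 in KO astrocytes. OPC came next with 58.8 ± 28.7 CPM, 13.6-fold less, and did not overlap tanycytes at 19.9 ± 13.0. Neurons had 3.23 ± 2.94 CPM. No UMI was found in 391 microglia, which allows a share of cells with a UMI of up to 0.767%.

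Slc38a3 was shared by 4 classes whose ranges overlapped. In astrocytes it was 228, 232 and 116 CPM in WT and 284, 264 and 228 in KO. Ependymal cells had 205 ± 75.3, endothelial cells 198 ± 72.1 and OPC 169 ± 66.2 CPM, against 225 ± 58.2 over the 6 astrocyte values. Tanycytes were apart from these at 37.4 ± 20.0 CPM, and neurons had 2.01 ± 2.31.

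Slc15a2 was the least abundant of the 7 genes in astrocytes, at 123 ± 42.2 CPM over 161 UMIs. OPC (56.0 ± 30.8) overlapped the astrocyte range, while ependymal cells (50.7 ± 9.22) were below the astrocytes in 6 of 6 libraries. Tanycytes had 30.4 ± 25.1 CPM over 28 UMIs. Neurons had 6.18 ± 6.57 CPM over 31 UMIs, 19.9-fold below astrocytes.

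**Figure D1:**
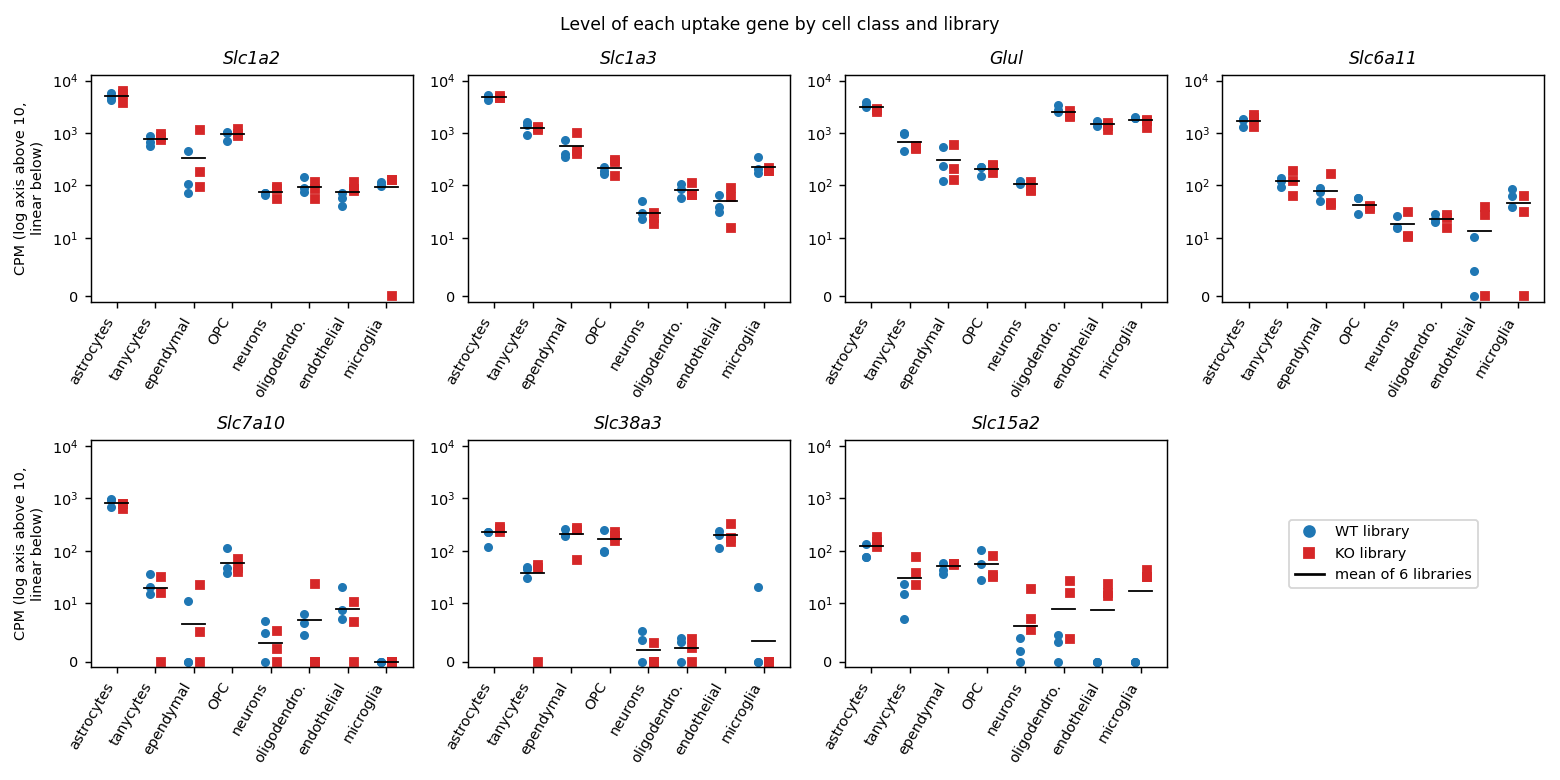
Level of each of the 7 genes (CPM, log axis above 10 and linear below) in 8 cell classes, with one point per library, blue circles for WT, red squares for KO, and a black line at the mean of 6 libraries. Slc1a2, Slc1a3, Slc6a11 and Slc7a10 have their astrocyte points above all others, whereas Glul and Slc38a3 have other classes at astrocyte height.

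Per cell, Slc1a2, Slc1a3, Glul and Slc6a11 were seen in most astrocytes, and Slc7a10, Slc38a3 and Slc15a2 in a minority. A UMI of Slc1a2 was found in 90.9% ± 3.88 of astrocytes, of Slc1a3 in 90.4% ± 3.74, of Glul in 81.7% ± 6.05, of Slc6a11 in 69.3% ± 7.14 and of Slc7a10 in 44.9% ± 4.76 (SD, n = 6 libraries). Slc38a3 was found in 16.1% ± 3.98 and Slc15a2 in 8.84% ± 2.21. Endothelial cells, a class outside the synapse, had a similar depth (medians of 636 to 726 UMIs per library, against 580 to 682 in astrocytes). They showed Slc1a2 in 6.96% of cells, Slc1a3 in 4.27%, Slc6a11 in 1.41%, Slc7a10 in 1.03% and Slc15a2 in 0.889%. Glul was found in 61.4% of them and Slc38a3 in 17.5%. Microglia showed Slc1a2 in 4.69% of cells, Slc1a3 in 13.7%, Glul in 62.8%, Slc6a11 in 3.04%, Slc38a3 in 0.265% and Slc15a2 in 1.17%.

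Each cell was then thinned to 500 UMIs, leaving out 577 shallower cells in WT and 872 in KO (131 and 231 of them astrocytes). The astrocyte shares were 87.1% for Slc1a2, 86.8% for Slc1a3, 74.4% for Glul, 58.0% for Slc6a11, 34.8% for Slc7a10, 11.0% for Slc38a3 and 6.23% for Slc15a2. In the deeper neurons, thinning moved the share with Slc1a2 from 11.8% to 4.31%, against 4.38% of endothelial cells at the same depth. For Slc1a3 the thinned shares were 1.79% of neurons, 2.37% of endothelial cells and 10.3% of microglia. Those of Slc15a2 differed by genotype, at 0.103% of WT and 0.534% of KO neurons and 0% of WT and 1.12% of KO endothelial cells. The part of free RNA in these low shares was not tested. OPC kept Slc1a2 in 37.3% of thinned cells and tanycytes kept Slc1a3 in 44.4%. Among 1644 astrocytes, 603 showed 4 of the 7 genes, 12 showed all 7, and 5 showed none.

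The make-up of the 7 genes therefore differed by class. Of their summed UMIs in astrocytes, 31.6% were Slc1a2, 30.7% Slc1a3, 19.4% Glul, 11.0% Slc6a11 and 5.05% Slc7a10. In tanycytes Slc1a3 led with 43.3%, and in OPC Slc1a2 led with 56.0%. In oligodendrocytes Glul made up 91.9% of the sum, and in endothelial cells 80.4% with a further 11.1% from Slc38a3. OPC and ependymal cells gave Slc38a3 a larger part, 9.78% and 17.4%, against 1.42% in astrocytes.

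**Figure D2:**
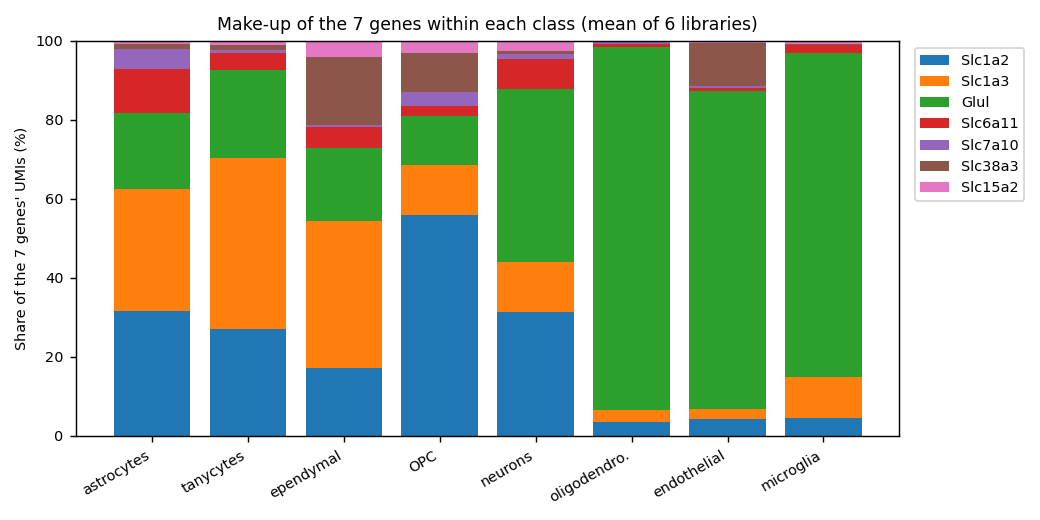
Share of each gene (%) in the summed UMIs of the 7 genes within each class, as the mean of 6 libraries, with one stacked bar per class. Slc1a2 and Slc1a3 fill most of the astrocyte, tanycyte and OPC bars, and Glul fills those of oligodendrocytes, endothelial cells and microglia.

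Seen from the side of the gene, astrocytes made up 9.08% of all UMIs and supplied 90.8% of the UMIs of Slc7a10, 83.3% of Slc6a11, 73.6% of Slc1a2 and 71.3% of Slc1a3. They supplied only 45.3% of Slc15a2, 31.2% of Slc38a3 and 30.8% of Glul. Oligodendrocytes gave 32.8% of the Glul UMIs, ependymal cells 26.4% of Slc38a3 and 18.3% of Slc15a2, and tanycytes 15.1% of Slc1a3. Slc15a2 and Slc38a3 therefore had most of their UMIs outside astrocytes.

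The genes whose level was most like each of the 7 were sought among 8131 genes by the Pearson correlation of log2(CPM + 10) over 42 points, 7 classes in 6 libraries. The points share libraries and class contrasts, so r is a description. Slc1a2 was most like F3 (tissue factor, r = 0.94), Ndrg2 (0.94) and the bicarbonate transporter Slc4a4 (0.94). Slc6a11 was most like Slc4a4 (0.93), the water channel Aqp4 (0.92) and Acsbg1 (0.92). Slc7a10 was most like Pla2g7 (0.96), Tlcd1 (0.94) and the growth factor receptor Fgfr3 (0.94). The partners of these 3 members were all highest in astrocytes, such as Pla2g7 at 1600 CPM in astrocytes and 25.6 in neurons. Slc4a4, Aqp4, Acsbg1 and Fgfr3 were among the astrocyte markers that named the class, so their height there is no separate result.

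Of the others, Slc1a3, Glul and Slc38a3 had partners of wider reach. Slc1a3 was most like Cd63, the urea transporter Slc14a1 and Apoe, the main lipid carrier of the brain (r = 0.92, 0.92 and 0.91), and Apoe stood at 21530 CPM in astrocytes and 12448 in tanycytes. Glul was most like the selenium carrier Sepp1 (0.91), Pon2 (0.88) and Dazap2 (0.87), and Sepp1 was higher in endothelial cells (4127 CPM) than in astrocytes (1862). Slc38a3 was most like Mfsd2a, a lysophospholipid transporter (0.90), Nhsl1 (0.89) and Trib2 (0.88), and Mfsd2a had 585 CPM in OPC, 375 in astrocytes and 272 in endothelial cells. Slc15a2, the gene with the fewest UMIs, had the weakest likeness: AW047730 (0.82), Cyp2j9 (0.82) and Ndrg2 (0.81). Among the members themselves, r was 0.90 between Slc1a3 and Slc6a11 and 0.87 between Slc1a2 and Slc7a10, but 0.11 between Slc1a2 and Glul.

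Within astrocytes, clustering without the 7 genes set apart 223 cells led by Myoc and by Gfap, the intermediate filament of fibrous and reactive astrocytes. Emb, Fxyd6 and the immediate early genes Egr1, Junb and Fos were also among their 10 leading genes, and their median depth was 1164 UMIs against 602 in the other 1421 astrocytes. Gfap itself stood at 1469 ± 636 CPM in them and 97.2 ± 50.1 in the others. The other sub-clusters had no coherent leading genes and were not read further.

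In the Gfap-led cells Slc7a10 was 270, 559 and 591 CPM in WT and 395, 276 and 233 in KO, against 894, 1044 and 1101 and 869, 744 and 1075 in the other astrocytes. No Gfap-led library reached the lowest of the others, and the ratio of means was 2.46. Slc6a11 was also lower, at 991 ± 329 CPM against 1985 ± 411, a ratio of 2.00 in the same direction in 6 of 6 libraries. Slc38a3 (128 ± 42.9 against 263 ± 66.7) and Slc15a2 (83.8 ± 35.6 against 136 ± 41.6) had ratios of 2.06 and 1.62, again in 6 of 6 libraries. The Gfap-led cells of all libraries held only 44 UMIs of Slc38a3 and 31 of Slc15a2, so their values in single libraries rest on few UMIs.

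Glutamate handling differed less between these astrocytes. Slc1a3 was 3766 ± 332 CPM in Gfap-led cells and 5267 ± 560 in the others, a ratio of 1.40. Slc1a2 was 4835 ± 1290 against 5156 ± 915 and Glul 3156 ± 816 against 3078 ± 478, both within the spread between libraries. The sub-clusters came from the same cells, so no test was made, and the part of depth in these ratios was not tested.

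**Figure D3:**
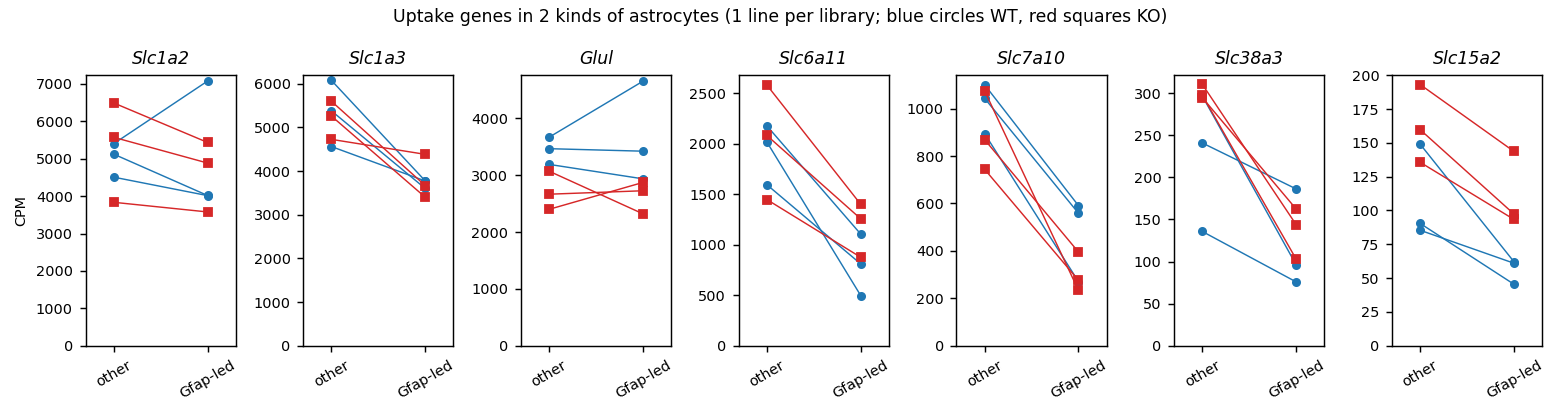
Level (CPM, each axis from 0) of the 7 genes in the other astrocytes and in the Gfap-led astrocytes, with one line per library, blue circles for WT and red squares for KO. The Gfap-led value is lower in all 6 libraries for Slc1a3, Slc6a11, Slc7a10, Slc38a3 and Slc15a2, and lines run in both directions for Slc1a2 and Glul. Gfap-led cells numbered 10 in WT2 and 14 in KO1.

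The comparison of KO with WT asked whether loss of IDOL moved uptake genes in any class. It was made on UMI counts summed per library and class, with edgeR's quasi-likelihood test fitted on all genes and Benjamini-Hochberg adjustment. Over all cells none of the 7 genes was called at an adjusted p of 0.05, and none of the 13059 genes tested was (0% called). In astrocytes 0 of 7 were called (background 0.0476%), in tanycytes 0 of 4 (0%), in OPC 0 of 4 (0%) and in neurons 0 of 4 (0.0431%). Oligodendrocytes gave 0 of 3 (0.147%), endothelial cells 0 of 3 (0%) and microglia 0 of 1 (0.138%). The members not counted in a class had too few UMIs there to enter its fit.

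Slc15a2 entered these fits with all other genes, and nothing is read from its place in them because this contrast chose it. Of the other 6 members an unadjusted p under 0.05 was reached by 0 over all cells, where 268 of all 13059 genes tested reached it (2.05%), and by 0 in astrocytes (185 of 4199 genes, 4.41%). It was reached by 1 of 4 in tanycytes, Glul (151 of 3806 genes, 3.97%), by 1 of 4 in neurons, Slc1a3 (433 of 9280, 4.67%), and by 0 of 4 in OPC (143 of 2128, 6.72%). DESeq2 called none of the 7 in any of these 5 fits. With 3 libraries a group the standard errors were wide, so these fits do not show that the levels were alike.

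The glutamate transporters showed small fitted differences. In astrocytes the log2 fold change of KO over WT was 0.09 ± 0.21 (SE) for Slc1a2 and -0.01 ± 0.20 for Slc1a3, and their genotype groups overlapped. The sign of Slc1a2 turned without the KO2 library, and that of Slc1a3 under 4 of the alternatives run. In tanycytes the values were 0.22 ± 0.24 and -0.10 ± 0.24, and in OPC 0.17 ± 0.23 and 0.42 ± 0.32. In neurons Slc1a3 had -0.63 ± 0.30, from 51.2, 30.2 and 22.7 CPM in WT and 23.9, 30.3 and 18.5 in KO. The neuronal groups overlapped, and without the WT1 library the log2 value was -0.11. In endothelial cells Slc1a2 did not overlap between the groups, at 58.6, 41.0 and 70.4 CPM in WT and 79.1, 115 and 85.9 in KO (0.62 ± 0.36), where 4.07% of genes were apart with KO higher.

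Slc6a11 and Slc7a10 differed in astrocytes by 0.15 ± 0.22 and -0.21 ± 0.22 on the log2 scale, within one standard error, with overlapping groups. Slc38a3 had 0.43 ± 0.26 in astrocytes and 0.29 ± 0.36 in OPC, the latter 0.99 without the WT1 library. The low WT3 value of 116 CPM in astrocytes lay below the other 5 libraries.

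Glul was lower in KO in most classes without being called in any. In astrocytes the 3 KO libraries (2477 to 2895 CPM) all lay below the 3 WT libraries (3105 to 3824), with a log2 fold change of -0.35 ± 0.20. Of 16 marker lists in the same astrocytes, the astrocyte list itself was apart with KO lower (29371 to 30177 CPM in WT and 27272 to 29281 in KO) and the red blood cell list apart with KO higher (38.7 to 56.3 and 114 to 231 CPM), and their part was not tested. Glul was 1 of 7 members apart with KO lower, where 5% of all genes tested were. In tanycytes WT had 958, 1022 and 451 CPM and KO 485, 518 and 559, so that the groups overlapped through WT3 (-0.69 ± 0.27). In microglia, with 1941, 1942 and 2053 CPM in WT and 1782, 1226 and 1665 in KO, they did not overlap (-0.39 ± 0.22, background 5.23%).

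The remaining classes had log2 values for Glul of -0.36 ± 0.19 in oligodendrocytes, -0.20 ± 0.22 in endothelial cells, -0.31 ± 0.19 in neurons and 0.19 ± 0.32 in OPC. The fitted value was thus below 0 in 6 of 7 classes, which all come from the same 6 libraries. Over all cells Glul was 809, 987 and 1212 CPM in WT and 605, 703 and 1239 in KO, and the groups overlapped through KO3. With the same class make-up given to every library, a setting chosen after the data were seen, Glul was 977, 992 and 1062 CPM in WT and 718, 778 and 936 in KO. The groups were then apart, with a ratio of 0.802 against 0.847 as measured. The share of all genes apart under this setting was not computed, so nothing is read from the separation.

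Slc15a2 was the gene chosen for its genotype difference. Over all cells it was 15.1, 18.5 and 17.4 CPM in WT (55, 28 and 32 UMIs) and 29.4, 33.1 and 32.0 in KO (72, 91 and 87 UMIs). The KO libraries all lay above the WT libraries, as did those of 3.88% of the genes tested, and the ratio of means was 1.85 (log2 0.91 ± 0.20). With the same class make-up in every library the ratio was 1.87. In bulk sums fewer cells of a class and less RNA per cell cannot be told apart, and here the astrocyte markers summed to 3379 to 4603 CPM in WT and 2996 to 4371 in KO. Of 16 marker lists over all cells, 3 were apart between the genotypes, each with KO higher. OPC markers summed to 351 to 450 CPM in WT and 469 to 610 in KO, perivascular macrophage markers to 38.4 to 77.9 and 84.1 to 123, and lymphocyte or neutrophil markers to 0 to 0.660 and 1.22 to 4.00. Their part in the Slc15a2 difference was not tested. Part of the WT3 count came from 1 ependymal cell with 8 UMIs, and without it the ratio was 2.01.

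The difference was unevenly spread over the classes. In astrocytes, which held the most Slc15a2, WT had 77.1, 136 and 75.5 CPM and KO 185, 145 and 121. The groups overlapped, and the ratio of pooled counts was 1.68 (95% counting interval 1.20 to 2.37). The intervals given with these ratios describe counting error only, leave out the spread between libraries, and test nothing. In ependymal cells, with the second largest share, 24 and 35 UMIs gave a ratio of 1.15 (0.665 to 2.02). In OPC 14 and 15 UMIs gave 0.723 (0.326 to 1.62), and in tanycytes 11 and 17 UMIs gave 1.91 (0.844 to 4.51). Without the WT1 library the ratio was 1.19 in OPC and 3.60 in tanycytes.

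The largest ratios lay in cells with the least Slc15a2. Unnamed cells had 1, 0 and 0 UMIs in WT and 10, 5 and 2 in KO, a ratio of 15.2 (2.38 to 634). They included clusters with neuron markers, led by peptide genes, which held 1 UMI in WT and 14 in KO. Neurons had 3, 2 and 0 UMIs in WT and 7, 5 and 14 in KO, a ratio of 5.29 (2.00 to 17.6), and the groups were apart, as were those of 5.16% of the genes tested in neurons with KO higher. Without the KO3 library the neuronal ratio was 3.42. In the same neurons the OPC markers were also apart with KO higher (120 to 163 CPM in WT and 170 to 192 in KO). The microglia markers were apart with KO lower (55.8 to 93.7 and 41.0 to 49.8). The part of both lists was not tested. Oligodendrocytes had 1, 1 and 0 UMIs in WT and 1, 4 and 11 in KO (6.57, with an interval of 1.55 to 58.9). Their groups overlapped, since KO1 (3.96 CPM) lay below WT2 (4.64), and without KO3 the ratio was 3.73. No UMI was found in WT endothelial cells, and KO1, KO2 and KO3 had 3, 2 and 6. With a floor of 3 counts set over the WT group the ratio was 2.57, and the lower end of the counting interval was 1.76. Of the genes tested there, 4.07% were apart with KO higher. WT microglia had none either, and KO microglia had 1, 2 and 2 (background 7.02%). The same floor gave a ratio of 1.56, and the lower end of the counting interval was 0.856. Slc15a2 had too few UMIs to be tested in these classes.

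Neurons, oligodendrocytes, endothelial cells and microglia were then put together, a grouping chosen after the values were seen. These 4 classes had 1.90, 3.55 and 0 CPM in WT and 8.72, 9.44 and 20.4 in KO. That is 7 against 58 UMIs and a ratio of 7.67 (3.50 to 19.9), with 33 of the 58 UMIs from KO3, without which the ratio was 5.25. In the same cells the ratio was 1.06 for Slc1a2 (310 and 354 UMIs), 0.836 for Slc1a3, 1.07 for Slc6a11 and 1.38 for Slc38a3. The 17 astrocyte markers summed there to 697 to 856 CPM in WT and 500 to 772 in KO, a ratio of 0.799, and the 9 ependymal markers to 131 to 184 and 127 to 168. Of the 16 marker lists 0 were apart between the genotypes in these 4 classes put together. Taken by class, astrocyte markers were apart with KO lower in oligodendrocytes, at 831 to 983 CPM in WT and 670 to 748 in KO. In microglia they were 563 to 1256 and 281 to 486. Tanycyte markers were apart with KO lower in oligodendrocytes. In endothelial cells neuronal markers were apart with KO lower, and markers of newly formed oligodendrocytes with KO higher. The lists apart in neurons are given above. Over the 4 classes together the OPC markers summed to 108 to 128 CPM in WT and 126 to 159 in KO. The red blood cell markers summed to 36.7 to 229 and 36.3 to 689. Both lists had higher means in KO with overlapping ranges. The part of the cells behind these lists and of free RNA in the Slc15a2 counts was not tested.

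**Figure D4:**
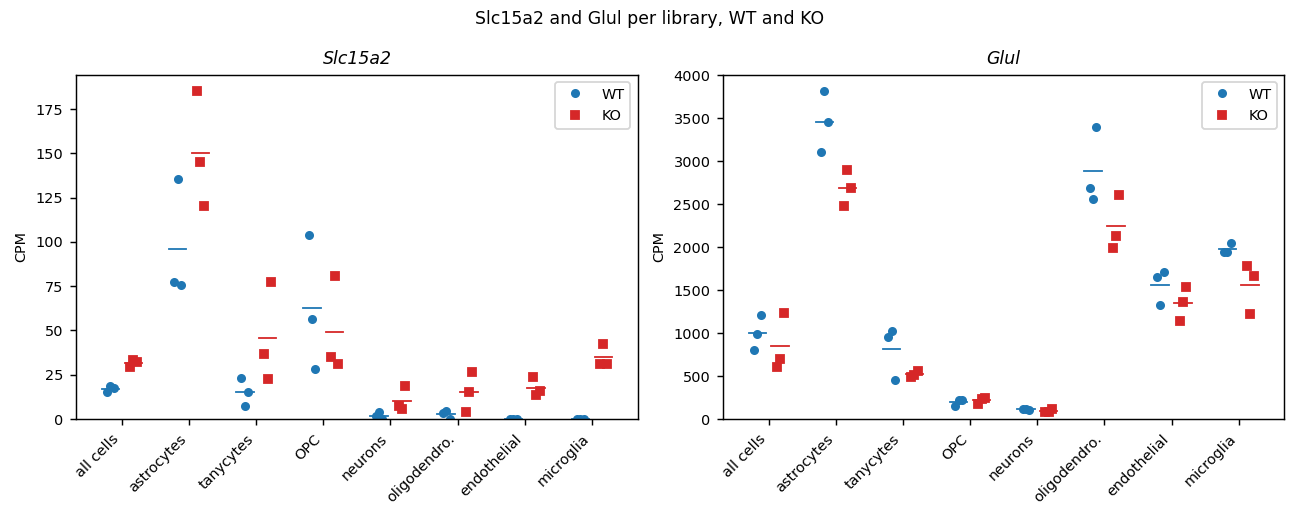
Level (CPM, axis from 0) of Slc15a2 and Glul by class, with one point per library, blue circles for WT and red squares for KO, and short lines at the mean of 3 libraries. Slc15a2 points are apart over all cells (KO 29.4 to 33.1 CPM), neurons, endothelial cells and microglia, and Glul points are apart in astrocytes and microglia.

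**Figure D5:**
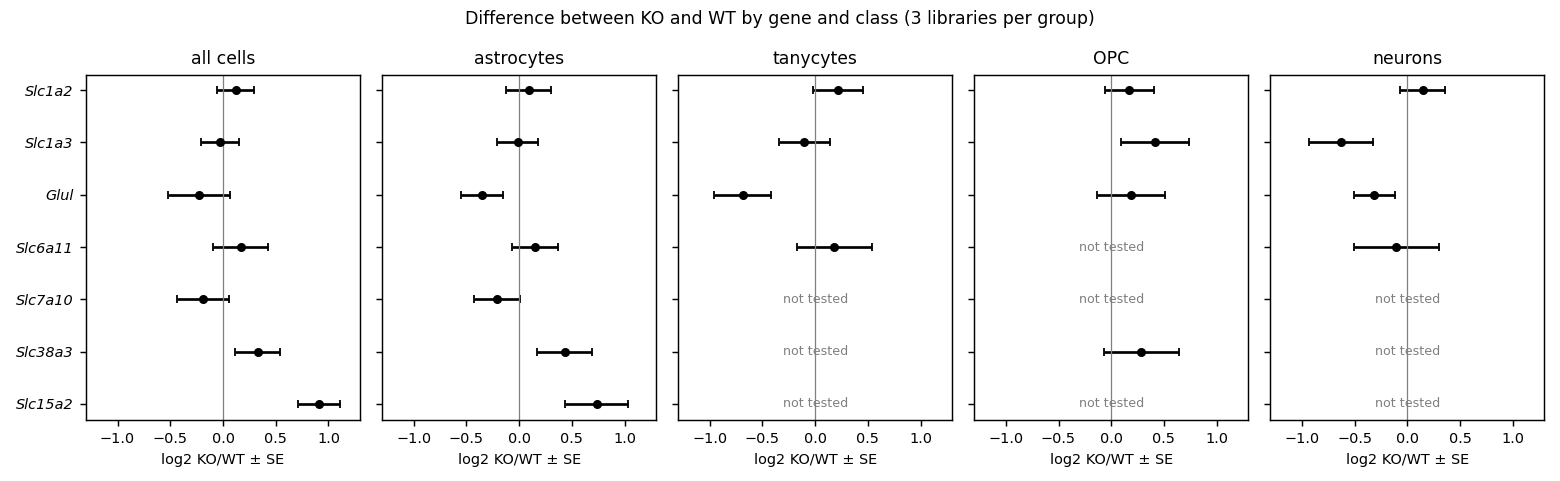
Fitted log2 fold change of KO over WT (points) with its standard error (bars) for each of the 7 genes over all cells and in 4 classes, with 3 libraries per group. No value was called, and genes with too few UMIs for a fit are marked as not tested.

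Other genes of transmitter and peptide handling were read from the same fits. Of 51 listed, 50 were in the table and 43 were tested over all cells, of which 0 were called and 0 had an unadjusted p under 0.05. Their log2 values were above 0 in 24 and below 0 in 19, with a median of 0.03, against 0.01 for all 13059 genes. In astrocytes 20 were tested and 0 called, 7 above and 13 below 0, with a median of -0.09 against 0.00 over all genes tested there. None of the 20 had an unadjusted p under 0.05. Tanycytes (15 tested), OPC (11) and neurons (28) had no call either, with 2, 0 and 2 at an unadjusted p under 0.05.

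Among other glutamate and neutral amino acid carriers, the highest in astrocytes was Slc3a2, the heavy chain that pairs with Slc7a10 and Slc7a11. WT astrocytes had 544 ± 38.5 CPM of it and KO astrocytes 426 ± 16.6 (log2 -0.34 ± 0.22). Slc7a11, the cystine-glutamate exchanger, had 282 ± 117 and 278 ± 113 CPM. Over all cells the smallest p in this list belonged to Slc38a5 (0.75 ± 0.50) and Slc38a1 (-0.20 ± 0.19). The glycine transporter Slc6a9 had 274 ± 33.2 CPM in WT astrocytes and 284 ± 7.93 in KO astrocytes. Slc6a13 (1.46 ± 0.87) and Slc6a17 (-0.14 ± 0.23) had the smallest p of their list over all cells.

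The other peptide genes gave little signal. Slc15a4, an endolysosomal relative of Slc15a2, had 23.0 ± 3.26 CPM over all WT cells and 24.9 ± 7.33 over KO cells (log2 0.12 ± 0.28). The dipeptidase Cndp2 had 39.7 ± 1.68 and 36.6 ± 4.97 (-0.10 ± 0.18). Their differences from Slc15a2 in this contrast were not tested.

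Of the enzymes, glutamate dehydrogenase Glud1 had 831 ± 129 CPM in WT astrocytes and 818 ± 120 in KO (log2 0.00 ± 0.22), and GABA transaminase Abat 393 ± 45.2 and 419 ± 81.3 (0.09 ± 0.22). Over all cells the smallest p belonged to the glutaminase Gls2 (0.81 ± 0.37) and the transaminase Got1 (-0.28 ± 0.16). Atp1b2, a beta subunit of the sodium pump, had 2142 ± 298 CPM in WT astrocytes and 1920 ± 148 in KO astrocytes (-0.15 ± 0.21). The mitochondrial glutamate carrier Slc25a22 (-0.28 ± 0.18) had the smallest p of its list over all cells.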

How the data were processed

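Gene by barcode UMI counts, not normalized, were deposited by the authors as a single table for the 6 libraries; CPM were computed from them. Per the submitters' processing notes, bcl2fastq, STAR 2.5.0c and the builds mm10 and GRCm38 were used; the annotation, strand and barcode selection were not given in the sources used here. Coordinates are from GENCODE M21. Cells had at least 300 genes and at most 20% mitochondrial UMIs; 116 doublets called by scrublet in scanpy 1.11.5 were removed. Clustering (2000 variable genes without the 7 members, 30 components, 15 neighbours, Leiden resolution 1) gave classes named by markers; the naming rule was set after the cells were seen. Of the clusters with neuron markers, some led by peptide genes stayed unnamed. Counts were summed per library and class and tested with edgeR 4.0.16 (filterByExpr, TMM) in classes with at least 20 cells in every library, a step checked on simulated data. Named genes are the members, the 3 most correlated genes per member (mean of at least 50 CPM in a class), and per handling list the 2 highest in astrocytes and the 2 with the smallest p over all cells. Some genes that this rule names are not reported here. Members and lists were chosen with earlier results of these data known. Alternatives included DESeq2 1.42.0, other filters and clusterings, and leaving out each library.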

Additional observations from a re-analysis of the deposited data

How the results depend on the processing

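None of the 7 members and none of the other handling genes was called under any alternative run, and the smallest adjusted p of a member over these was 0.715 (neurons). The number of all genes called moved: over all cells from 0 to 4 with DESeq2, 1 without a gene filter and 1 with the replicate block, and 0 to 1 leaving out a library; in astrocytes from 2 to 0 with DESeq2, 10 without a filter, 1 with robust settings, 0 with at least 500 genes per cell, and 1 to 3 leaving out a library. Tanycytes went from 0 to 2 without a filter and 0 to 2 leaving out a library, OPC likewise from 0 to 2 and 0 to 2. Neurons went from 4 to 29 without a filter, 1 with robust settings, 2 with at least 500 genes, 2 at Leiden resolution 0.5, and 2 to 16 leaving out a library. The cause was not tested. Same-numbered libraries had correlated deviations of 0.25, -0.15 and 0.23, so the numbers were not taken as pairs, and the replicate block called no member. Of 376 log2 values of members under alternatives, 24 changed sign. Of the same values, 9 moved by more than the SD of log2(CPM + 1) between libraries of the same genotype. The sign changes lay in Slc1a2, Slc1a3, Slc6a11, Slc7a10 and, in OPC without WT1, Glul. Slc1a2 in tanycytes was 0.56 with doublets kept, and Slc7a10 in astrocytes was -0.44 with at least 500 genes per cell. With at least 500 genes per cell Slc15a2 had a log2 value of 1.16 over all cells and 1.15 in astrocytes. Thinning to 1000 in place of 500 UMIs moved 23 of 28 shares of cells by more than their spread. Depth limits Slc15a2 most, with 365 UMIs in 9333 cells.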
